A study of Mus musculus with 22 samples.

Results

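Histamine and adenosine are small signalling molecules that macrophages make, take up and sense, and 9 genes of these systems are described here in mouse bone marrow-derived macrophages (BMDM) exposed to bacterial lipopolysaccharide (LPS). The genes are Hdc, which encodes histidine decarboxylase, the histamine receptor genes Hrh1 and Hrh2, the adenosine receptor genes Adora2a, Adora2b and Adora3, and the enzyme genes Entpd1, Nt5e and Ada. They were chosen by name, and every array probe whose RefSeq accession leads to one of these symbols was taken. Of the 9 genes, 8 had a probe (11 probes in all) and all 8 were among the 22413 genes tested, while no probe was paired with Hrh2, which has no value here.

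The macrophages came from wild-type (wt) mice, from mice lacking MK2 (MK2-/-) and from mice lacking both MK2 and its relative MK3 (MK2/3-/-), all C57BL/6 and labelled male. MK2 and MK3 are protein kinases activated by p38 MAPK and act on the fate of inflammatory mRNAs. Bone marrow cells were grown for 9 days with M-CSF and then kept for 360 min with 100 ng/ml LPS or with medium alone. The groups were wt with LPS (3 arrays, mice of 12 to 13 weeks), wt in medium (4 arrays, 12 to 13 weeks), MK2-/- with LPS and in medium (4 arrays each, 10 to 13 weeks), MK2/3-/- with LPS (4 arrays, 11 to 14 weeks) and MK2/3-/- in medium (3 arrays, 11 to 12 weeks). The mice carried the deletions throughout, so the cells also differentiated without the kinases, and no MK3-/- sample was analysed here. Each genotype lay on its own slide with its own scan, so genotype and slide cannot be told apart, whereas treated and untreated cells of one genotype were hybridised together on it. The study describes independent experiments, and the sample labels name no culture or animal, so the p-values measure the spread between these samples. Letters in the array names recur between the LPS and medium arrays of a genotype, and same-letter arrays carry the same labelled age, but whether they share an animal is not stated.

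Histidine decarboxylase converts histidine to histamine in a single step, and it is best known from mast cells and basophils, although activated macrophages also induce it. Histamine acts through G protein-coupled receptors, of which the H1 receptor couples to Gq and the H2 receptor to Gs and cAMP. Extracellular adenosine is made from ATP that leaves the cell: CD39, encoded by Entpd1, removes phosphates down to AMP, and CD73, encoded by Nt5e, turns AMP into adenosine. Adenosine deaminase, encoded by Ada, converts adenosine to inosine. The receptors encoded by Adora2a and Adora2b raise cAMP through Gs, that of Adora3 couples to Gi, and Adora2a signalling in macrophages is known for restraining inflammatory cytokine production.

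All values are log2 signals after quantile normalisation, and a gene with several probes is represented by the brightest one. The arrays had a median processed signal of 32.7 to 108 and 61.2 to 82.8% of probes well above background. Macrophage markers with a probe (7 of 8 listed) were above background on all 22 arrays, and 7 of 7 LPS-inducible check genes rose in every genotype. Under LPS, Mapkapk2 was lower by -3.29 (log2) in MK2-/- and by -3.87 in MK2/3-/-, and Mapkapk3 was lower by -4.11 in MK2/3-/-, each against wt. The arrays of MK2-/- replicate 3, with LPS and in medium, lacked Y-linked signal (Ddx3y at 1.99 and 2.01) although labelled male, and the LPS array of that pair also had 3310 flagged spots against 162 to 452 on the others. The wt medium replicate 4 array held LPS-type transcripts (Il6 at 13.36 against 4.88 to 10.02 on the other medium arrays). Results of the members, the genes chosen by name, that change when these arrays are left out are given both ways. Results of the other genes named below are given with all arrays only.

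After LPS, 5 of the 8 genes were called in wt at an adjusted p under 0.05 (limma), 4 higher and 1 lower, beside 42% of all genes tested. In MK2-/- 5 were called, 3 higher and 2 lower (44.6% of all genes), and in MK2/3-/- 6 were called, 3 higher and 3 lower (48.1%). Hdc, Adora2a and Adora2b rose in every genotype and Entpd1 fell in every genotype. The median change of the 8 genes was 1.32 in wt, 0.45 in MK2-/- and 0.32 in MK2/3-/-, beside medians of -0.04, -0.01 and 0.02 over all genes. With so large a share of all genes called, the number of called members does not set them apart.

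**Figure D1:**
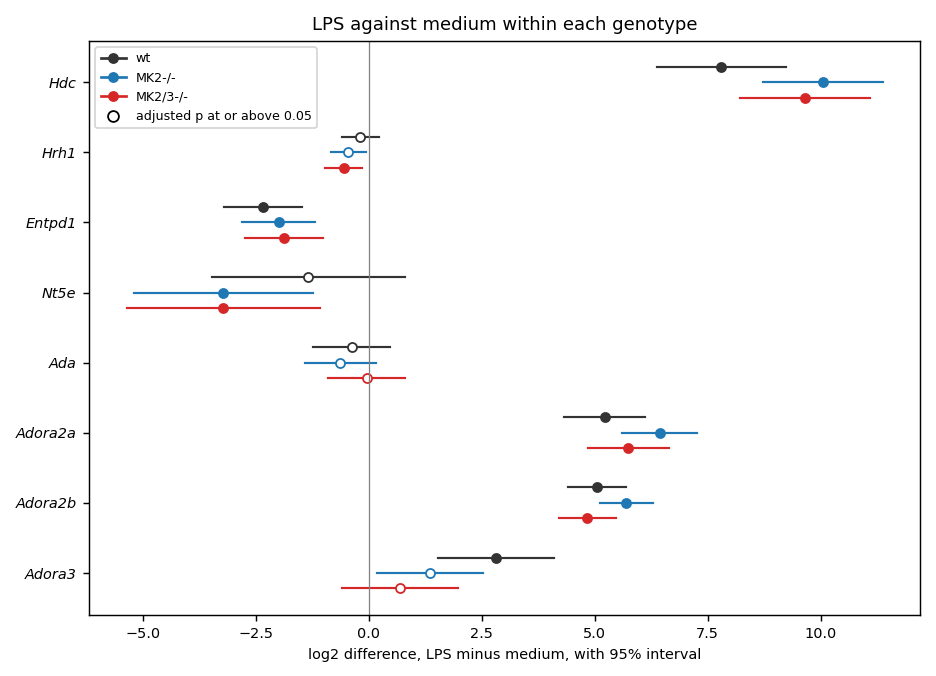
The plot gives the log2 difference between LPS and medium (x axis, log2 units) for the 8 genes in each genotype, with bars for 95% intervals and open markers for an adjusted p of 0.05 or more. Hdc, Adora2a and Adora2b lie far to the right of 0 in all 3 genotypes, Entpd1 and Nt5e to the left, and Adora3 is called in wt alone.

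Promoters were taken from RefSeq (build GRCm38.p6, 250 bases before to 50 after the start site), which held 13 promoters for 8 of the 9 genes. Shown are those of the histamine synthesis gene and of the adenosine receptor genes called between LPS-treated genotypes. They were searched on both strands for the core of the cAMP response element, TGACG, the AP-1 element TGANTCA, the C/EBP element TTNNGNAA, the NF-kB element and the interferon-type element, and capitals mark a match. The Hdc promoter lies at chr2:126618629-126618928 on the minus strand, the Adora2b promoter at chr11:62248734-62249033 on the plus strand and the Adora3 promoter at chr3:105904171-105904470 on the plus strand.
Hdc: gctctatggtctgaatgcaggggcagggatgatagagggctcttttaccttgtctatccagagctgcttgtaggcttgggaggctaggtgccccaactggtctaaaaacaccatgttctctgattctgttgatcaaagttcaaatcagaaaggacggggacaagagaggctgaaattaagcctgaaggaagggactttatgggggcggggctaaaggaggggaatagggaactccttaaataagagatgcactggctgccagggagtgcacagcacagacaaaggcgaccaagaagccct
Adora2b: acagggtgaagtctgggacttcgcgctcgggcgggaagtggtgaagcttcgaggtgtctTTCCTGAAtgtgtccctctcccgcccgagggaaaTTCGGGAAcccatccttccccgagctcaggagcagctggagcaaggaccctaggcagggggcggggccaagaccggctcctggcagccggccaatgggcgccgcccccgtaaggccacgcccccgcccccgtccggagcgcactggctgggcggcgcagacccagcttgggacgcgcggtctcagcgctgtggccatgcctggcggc
Adora3: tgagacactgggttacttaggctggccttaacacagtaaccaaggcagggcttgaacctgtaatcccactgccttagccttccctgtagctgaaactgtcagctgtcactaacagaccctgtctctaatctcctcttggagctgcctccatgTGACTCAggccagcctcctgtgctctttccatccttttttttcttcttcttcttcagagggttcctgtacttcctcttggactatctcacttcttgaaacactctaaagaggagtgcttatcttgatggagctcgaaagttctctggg
The Hdc window held none of the 5 motifs. The Adora2b window held 2 C/EBP matches, TTCCTGAA at -191 and TTCGGGAA at -157 from the start site, and the Adora3 window held 1 AP-1 match, TGACTCA at -98. Neither gene's matches overlapped another motif. Of 32851 promoters of the same length, 20.8% held the cAMP response core, 7.81% the AP-1 element, 4.79% the NF-kB element, 40.7% the C/EBP element and 3.44% the interferon-type element. Such matches describe letters in a window and not binding.

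Hdc showed the largest LPS response of the 8 genes in every genotype. In wt its log2 signal was 15.38, 14.68 and 14.79 with LPS and 6.17, 5.49, 6.90 and 10.04 in medium. In MK2-/- it was 15.23, 15.18, 14.73 and 14.64 with LPS and 5.73, 4.23, 5.30 and 4.35 in medium, the last value not well above background. The MK2/3-/- arrays gave 14.58, 14.41, 14.51 and 14.50 with LPS and 5.12, 4.77 and 4.67 in medium. Every LPS array therefore lay above every medium array of its genotype, and the highest medium value belonged to the wt array that also held LPS-type transcripts. The rise was 7.80 (SE 0.68) in wt, or 223-fold (adjusted p = 3.93e-08, limma), and without wt medium replicate 4 it was 8.77, or 435-fold (adjusted p = 1.89e-11). In MK2-/- the rise was 10.04, or 1056-fold (adjusted p = 2.77e-10), and in MK2/3-/- it was 9.65, or 803-fold (adjusted p = 1.48e-09). Its size depended on the processing, as many medium values are low. Across the alternatives other than leaving out 1 array it ran from 6.98 to 8.77 in wt. The range was 8.23 to 10.44 in MK2-/- and 7.83 to 9.80 in MK2/3-/-.

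The LPS-treated genotypes were close to each other in Hdc. The 4 MK2/3-/- arrays had a SD of 0.07 and all lay below the lowest array of both other genotypes, whose SDs were 0.38 (wt) and 0.30 (MK2-/-). The difference of MK2/3-/- from MK2-/- was -0.45 (95% interval -1.77 to 0.88, adjusted p = 0.71) and from wt also -0.45 (-1.88 to 0.98, adjusted p = 0.673), so neither passed the test that shares one spread over the 6 groups. Much of that shared spread came from wt medium, whose 4 arrays had a SD of 2.01. When only the groups compared entered the fit, the adjusted p was 0.25 against wt and 0.23 against MK2-/-. In medium, Hdc was lower in MK2-/- than in wt by -2.25 (adjusted p = 0.0348), with ranges that overlapped. Without wt medium replicate 4 this difference was -1.28 (adjusted p = 0.0428), and without that array and both MK2-/- replicate 3 arrays it was -1.42 (adjusted p = 0.0534). The call was also lost without wt medium replicate 3 or MK2-/- medium replicate 2, 3 or 4, with an adjusted p of 0.0507 to 0.109. The MK2/3-/- arrays in medium were all below the wt arrays, a difference of -2.30 that did not pass (adjusted p = 0.0844). Nor did the larger rises of Hdc in the knockout genotypes differ from the rise in wt by the interaction test, with 2.24 for MK2-/- (adjusted p = 0.633) and 1.85 for MK2/3-/- (adjusted p = 0.501). Without wt medium replicate 4 these Hdc differences were 1.28 (adjusted p = 0.601) and 0.88 (adjusted p = 0.61).

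**Figure D2:**
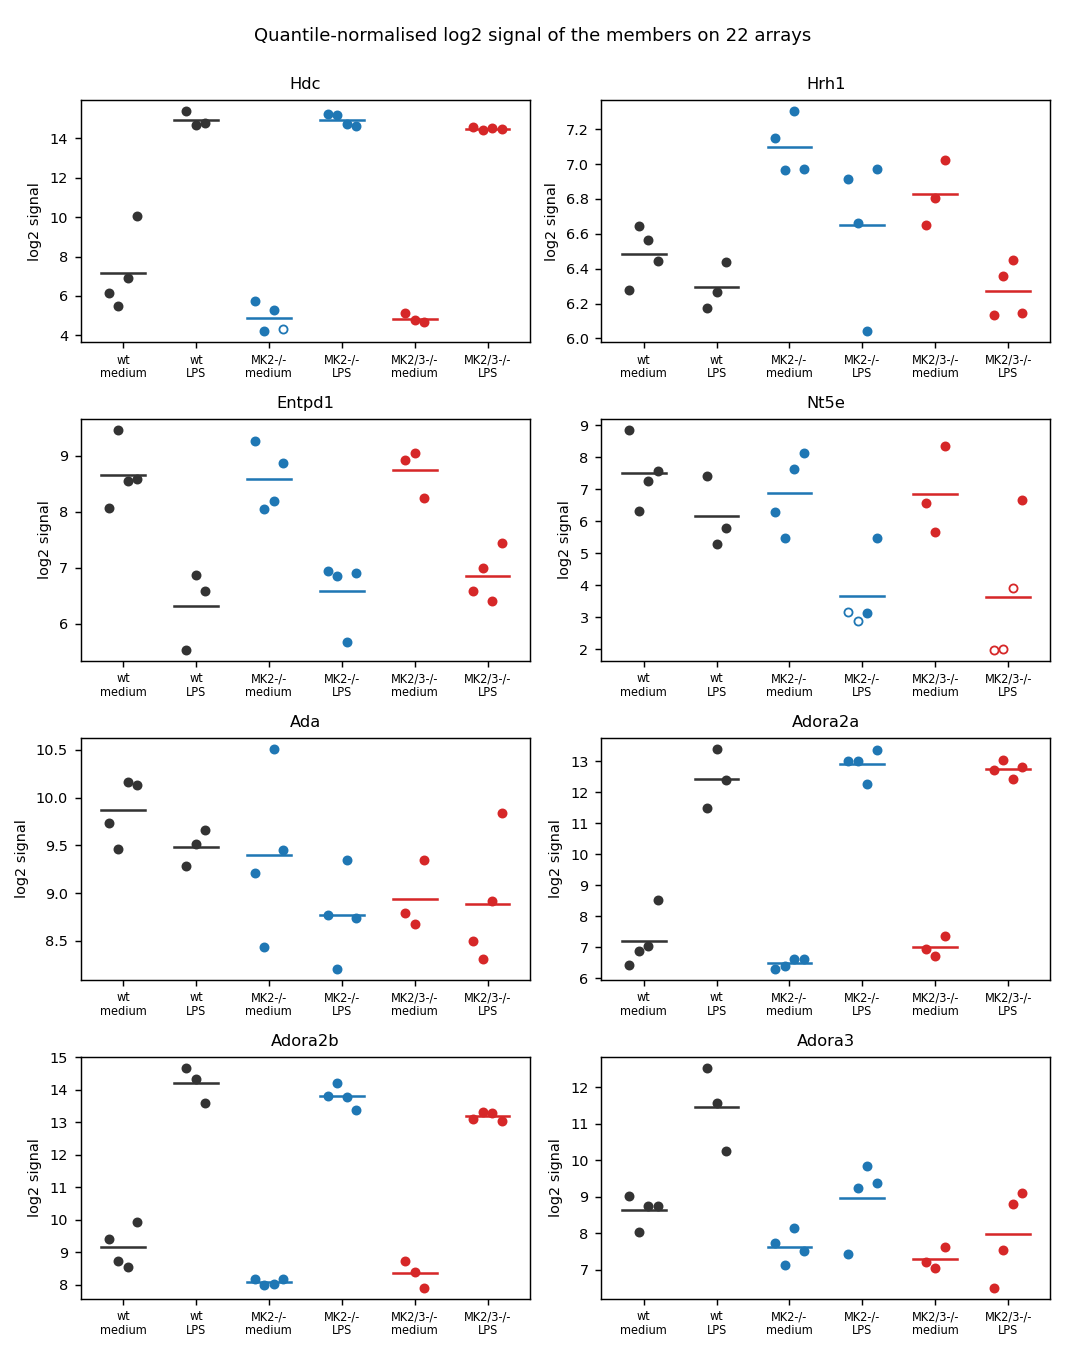
Each panel plots the log2 signal (y axis, log2 units, own scale per panel) of one gene on each of the 22 arrays by group, with lines for group means and open markers for arrays not well above background. The wt medium array at 10.04 stands above the other medium arrays of Hdc, and the LPS arrays of Nt5e in MK2-/- and MK2/3-/- spread from near the array floor to 6.66.

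Mast cells and basophils, the classical histamine-producing cells, were checked through their markers, since in a bulk sample fewer cells of a type and less RNA per cell cannot be told apart. Of 14 listed genes 13 had a probe, 3 were above background on all arrays (Tpsb2, Mcpt4 and Hpgds), and the IgE receptor genes Fcer1a and Ms4a2 were above background on none. The summed level of the markers (log2 of the mean signal) was 6.81 to 7.76 on the LPS arrays and 7.72 to 8.64 on the medium arrays. Of the 11 markers tested, 2 were higher and 1 lower after LPS in wt, 1 and 1 in MK2-/-, and 1 and 2 in MK2/3-/-, with medians of 0.43, 0.04 and -0.08. Beside these, 18.6 and 23.5% of all genes were higher and lower in wt, 17.5 and 27.1% in MK2-/-, and 20.2 and 27.9% in MK2/3-/-. The summed level rests mostly on its brightest probes, and the part of these cells in the Hdc signal was not tested.

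The histamine receptor gene Hrh1, whose H1 receptor couples to phospholipase C, had 3 probes that differed in their LPS response. The brightest probe read 6.17 to 6.44 in wt with LPS and 6.28 to 6.64 in medium, 6.04 to 6.97 and 6.97 to 7.30 in MK2-/-, and 6.13 to 6.45 and 6.65 to 7.03 in MK2/3-/-. Its LPS changes were small, -0.19 for wt (adjusted p = 0.483), -0.45 for MK2-/- (adjusted p = 0.0505) and -0.56 for MK2/3-/- (adjusted p = 0.0244, limma). Only the last passed the test, and all 4 LPS arrays lay below all 3 medium arrays there. It was lost without MK2/3-/- LPS replicate 1 or 4 or medium replicate 2 or 3 (adjusted p of 0.0536 to 0.112), and with scaling to the 75th percentile it was -0.22 (adjusted p = 0.356). The Hrh1 change in MK2-/- passed without LPS replicate 1 or 4 or medium replicate 2 of that genotype, or without MK2/3-/- LPS replicate 3 (-0.56 to -0.45, adjusted p of 0.0241 to 0.0498). Without both MK2-/- replicate 3 arrays the Hrh1 change in MK2-/- was -0.18 (adjusted p = 0.412). With only the LPS array of replicate 3 left out, Hrh1 under LPS was higher in MK2-/- than in wt by 0.56 (adjusted p = 0.04) and lower in MK2/3-/- than in MK2-/- by -0.58 (adjusted p = 0.0193), neither of which was called with all arrays. In medium this probe was higher in MK2-/- than in wt by 0.62 (adjusted p = 0.0416), with no overlap.

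The second Hrh1 probe fell further. It read 6.77, 6.64 and 6.04 in wt with LPS against 8.31, 8.40, 7.43 and 7.21 in medium. In MK2-/- it read 4.82, 5.82, 4.34 and 5.84 with LPS against 7.98, 6.68, 7.2 and 7.03, the first value not well above background. The MK2/3-/- arrays read 3.55, 3.27, 4.15 and 5.42 with LPS, of which 1 of 4 was well above background, against 8.15, 7.80 and 7.07 in medium. LPS and medium arrays did not overlap in any genotype. The fall was -1.35 for wt (adjusted p = 0.0331), -2.02 for MK2-/- (adjusted p = 0.0011) and -3.58 for MK2/3-/- (adjusted p = 5.91e-06). Under LPS the probe was lower in MK2/3-/- than in wt by -2.38 (adjusted p = 0.0022), while the interaction of -2.22 did not pass (adjusted p = 0.146) unless MK2/3-/- LPS replicate 4 was left out (-2.66, adjusted p = 0.0273). The wt fall of this probe was lost without wt LPS replicate 2 or 3 or wt medium replicate 1 or 2 (adjusted p of 0.0614 to 0.131). Its sizes also depended on the processing. Across 9 alternatives other than leaving out 1 array, the fall in MK2/3-/- ran from -3.84 to -1.615 and kept its call. The difference of MK2/3-/- from wt under LPS ran from -2.53 to -0.82 and lost its call in 1 of the 9. The third probe stayed between 4.32 and 5.75 with no call, and which probe follows the Hrh1 transcript best was not tested.

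**Figure D3:**
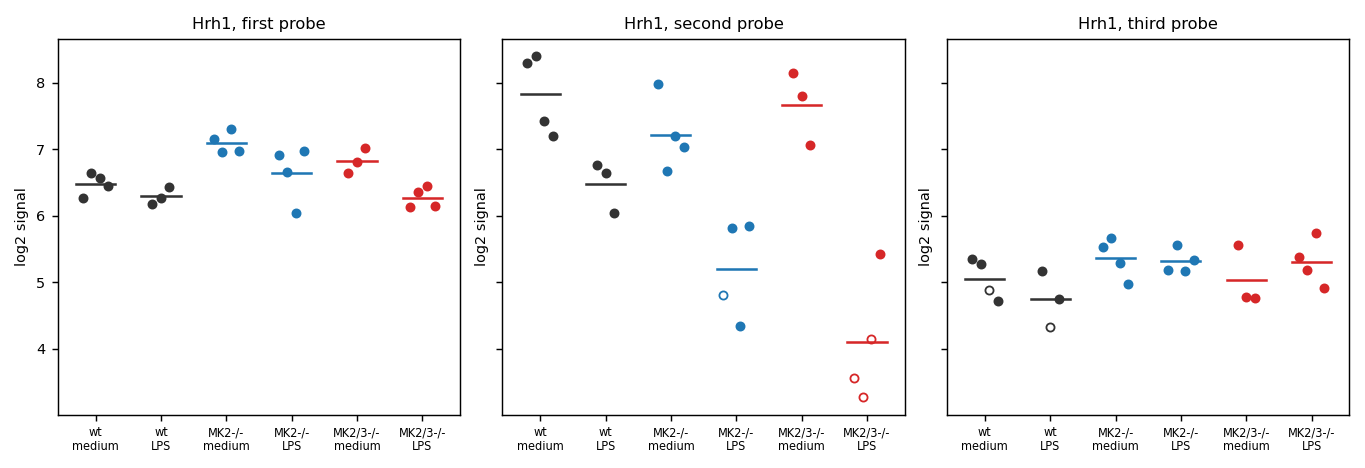
The plot gives the log2 signal (y axis, log2 units) of the 3 Hrh1 probes on each array by group, with lines for group means and open markers for arrays not well above background. The second probe drops with LPS to between 3.27 and 5.42 in MK2/3-/-, whereas the brightest probe stays between 6.04 and 7.30 on all arrays.

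Of the 10 other histamine genes listed (receptors, transporters and degrading enzymes), 7 were tested. In wt 2 were higher and none lower after LPS, in MK2-/- 2 were higher and 1 lower, and in MK2/3-/- 2 were higher and 2 lower, with medians of 0.19, -0.16 and 0.24. Over all genes 18.6% were higher and 23.5% lower in wt, 17.5 and 27.1% in MK2-/-, and 20.2 and 27.9% in MK2/3-/-. Hrh4, the receptor gene of leukocytes, rose by 1.77, 1.1 and 1.25 in wt, MK2-/- and MK2/3-/-, and Slc29a4, which encodes a monoamine transporter, rose by 0.84, 0.90 and 1.27. Both genes thus moved one way in every genotype. Hnmt, whose product methylates and inactivates histamine, changed by -0.58 for wt (adjusted p = 0.065), -1.55 for MK2-/- (adjusted p = 1.40e-05) and -2.01 for MK2/3-/- (adjusted p = 1.43e-06). With LPS both knockout genotypes had less Hnmt signal than wt, by -1.26 for MK2-/- (adjusted p = 0.00506) and -1.61 for MK2/3-/- (adjusted p = 0.000257). Slc18a2, the vesicular transporter gene that is also among the mast cell markers, fell in MK2/3-/- by -2.07 (adjusted p = 0.000542). With LPS, 2 of 4 MK2/3-/- arrays were well above background for Slc18a2. It was lower there than in wt by -2.39 (adjusted p = 0.000916, limma) and than in MK2-/- by -1.42 (adjusted p = 0.0244). None of the 7 tested genes was called in a difference of LPS responses between genotypes. The unlike LPS changes of Hnmt and Slc18a2 were therefore not shown to differ between genotypes.

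Entpd1, encoding CD39, fell after LPS by a similar amount in all genotypes. Its log2 signal in wt was 5.53, 6.86 and 6.57 with LPS and 8.07, 9.46, 8.54 and 8.58 in medium. In MK2-/- it was 6.94, 6.84, 5.68 and 6.90 with LPS and 9.25, 8.04, 8.19 and 8.88 in medium, and in MK2/3-/- 6.59, 6.99, 6.41 and 7.45 with LPS and 8.92, 9.05 and 8.24 in medium. Every LPS array lay below every medium array of its genotype. The falls were -2.34 (5.06-fold, adjusted p = 0.000148) in wt, -2.0 (3.99-fold, adjusted p = 0.000244) in MK2-/- and -1.88 (3.67-fold, adjusted p = 0.000869) in MK2/3-/-. No genotype difference passed the test. The gene models Gm16027, Gm8783 and Gm41846 overlap Entpd1 in RefSeq.

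Nt5e, encoding CD73, varied more between arrays of a group than Entpd1, with SDs of 1.04 to 2.20. In wt it read 7.42, 5.28 and 5.80 with LPS and 8.85, 6.34, 7.27 and 7.58 in medium, and the ranges overlapped. In MK2-/- it read 3.16, 2.88, 3.14 and 5.48 with LPS, of which 2 of 4 were well above background, and 6.3, 5.48, 7.64 and 8.13 in medium. The MK2/3-/- arrays read 1.99, 2.02, 3.91 and 6.66 with LPS, of which 1 of 4 was well above background, and 6.57, 5.66 and 8.34 in medium. The first 2 of these LPS values sit at the floor of the arrays, where lower levels cannot be read. The change after LPS was -1.34 for wt (adjusted p = 0.317), -3.22 for MK2-/- (adjusted p = 0.00869) and -3.22 for MK2/3-/- (adjusted p = 0.0135, limma).

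The size and the calls of the Nt5e fall turned on few arrays and on the background correction. Without both MK2-/- replicate 3 arrays the fall in MK2-/- was -2.80 and did not pass (adjusted p = 0.0584). In MK2/3-/- a single array decided. Without MK2/3-/- LPS replicate 4 it was -4.22 (adjusted p = 0.000697), and without MK2/3-/- medium replicate 3 it was -2.48 and did not pass (adjusted p = 0.0877). With normexp background correction the Nt5e changes were -0.76 for wt (adjusted p = 0.226), -1.15 for MK2-/- (adjusted p = 0.0397) and -1.15 for MK2/3-/- (adjusted p = 0.0544). Under LPS the differences from wt were -2.50 for MK2-/- (adjusted p = 0.111) and -2.52 for MK2/3-/- (adjusted p = 0.0803), and without MK2/3-/- LPS replicate 4 the latter was -3.53 (adjusted p = 0.00832). The interaction did not pass in MK2-/- (-1.88, adjusted p = 0.804) or in MK2/3-/- (-1.87, adjusted p = 0.723).

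Collagen genes among the stromal markers were highest on the arrays highest in Nt5e, whose product is also a surface marker of mesenchymal stromal cells. All 5 listed genes (Col1a1, Col3a1, Dcn, Pdgfrb and Pdgfra) had a probe, 3 were above background on all arrays and Pdgfra on 5. Their summed level (log2 of the mean signal) ran from 9.80 to 11.50 in wt with LPS and from 7.59 to 12.77 in medium, from 8.77 to 10.14 and from 6.25 to 10.53 in MK2-/-, and from 7.98 to 11.07 and from 6.28 to 11.64 in MK2/3-/-. The array highest in Nt5e was also the highest in the stromal sum in 6 of 6 groups, and the lowest was the same array in 5 of 6. Col1a1 alone spanned 4.89 to 14.99 over the arrays and was the brightest marker on the array highest in Nt5e in every group. It did not carry the sum on all arrays. On MK2-/- LPS replicates 1 and 2 it read 7.26 and 6.90 against 10.3 and 10.57 for Pdgfrb. On MK2/3-/- LPS replicates 1 and 2 it read 5.78 and 7.26 against 8.84 and 8.82. Taken singly, Col1a1 and Col3a1 were highest on the array highest in Nt5e in 6 of 6 groups, Pdgfrb in 3 and Dcn in 2, while in the 3 LPS groups that array was the lowest in Dcn in 3 and in Pdgfrb in 2. None of the 5 markers was called lower after LPS, with median changes of 0.99 in wt, 0.31 in MK2-/- and 0.53 in MK2/3-/- and 0, 2 and 1 of them called higher. Of all genes, 23.5, 27.1 and 27.9% were lower in these genotypes and 18.6, 17.5 and 20.2% higher. The part of stromal RNA in the Nt5e result was not tested.

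**Figure D4:**
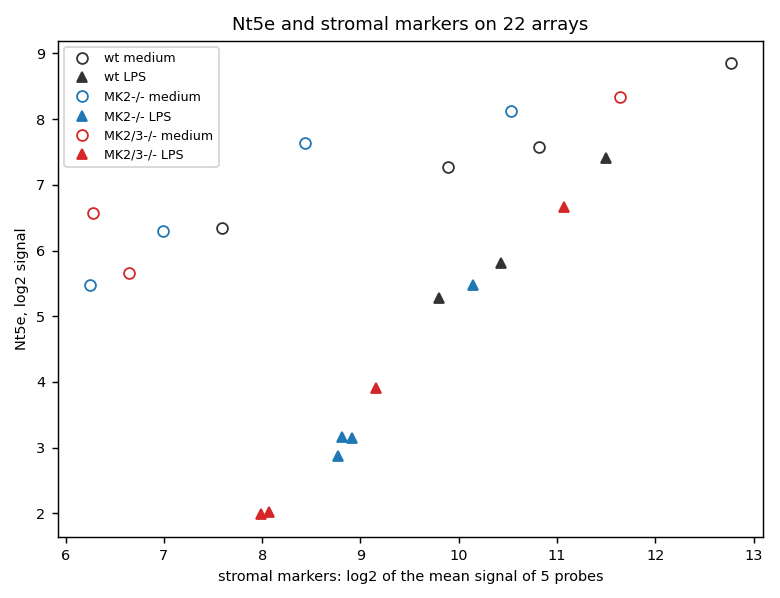
The plot sets the log2 signal of Nt5e (y axis, log2 units) against the stromal summed level (x axis, log2 of the mean signal of the marker probes) on each array, with filled triangles for LPS and open circles for medium. Within each of the 6 groups the array farthest up is also the one farthest right.

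Ada, which removes adenosine, was called in no comparison with all arrays. It read 9.28 to 9.66 with LPS and 9.46 to 10.16 in medium in wt, 8.21 to 9.35 and 8.44 to 10.51 in MK2-/-, and 8.31 to 9.84 and 8.67 to 9.35 in MK2/3-/-. LPS and medium ranges overlapped in every genotype, with changes of -0.38, -0.63 and -0.05. Without MK2-/- medium replicate 2 the change in MK2-/- was -0.96 and passed (adjusted p = 0.0392).

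Of 14 other genes of nucleotide breakdown, some of whose products act inside the cell, 13 were tested. After LPS 1 was higher and 3 lower in wt, 2 and 5 in MK2-/-, and 1 and 5 in MK2/3-/-, with medians of -0.42, -0.08 and -0.28. The shares of all genes called after LPS in each direction are those given with the histamine genes. Cd38, whose product consumes NAD and feeds an alternative route to adenosine, rose by 2.02, 2.58 and 2.72 in wt, MK2-/- and MK2/3-/-. Entpd4 and Entpd6, relatives of CD39 that act inside the cell, fell by 1.94 and 1.62 in wt. Entpd4 changed by -2.86 and -2.84 in the knockout genotypes and Entpd6 by -2.40 and -1.76. Under LPS none of the 13 was higher than wt in a knockout genotype, while 3 were lower in MK2-/- and 4 in MK2/3-/-, beside 7.05 and 14% of all genes, and the medians were -0.97 and -0.81. Entpd7, an intracellular nucleotidase gene, was well above background on 3 of 3 wt, 1 of 4 MK2-/- and 0 of 4 MK2/3-/- LPS arrays. It was lower by -1.50 in MK2-/- (adjusted p = 0.0339), where most values are at background. Its mean was 2.39 in MK2/3-/- against 4.99 in wt (adjusted p = 0.000516, limma). With no MK2/3-/- array well above background, the size of that difference is uncertain. Enpp1, which releases AMP from ATP, was lower by -2.18 (adjusted p = 0.00397) and -1.95 (adjusted p = 0.00226), with 1 of 4 and 2 of 4 arrays well above background. All these differences ran downwards. Entpd6 was lower in MK2-/- alone among the calls (-1.21, adjusted p = 0.0124, limma, 2 of 4 arrays well above background). Entpd4 (-1.33, adjusted p = 0.0184) and Enpp2, the autotaxin gene (-2.36, adjusted p = 0.0483), were called lower in MK2/3-/- alone. In medium the mean of Enpp1 was 6.74 in wt, 5.13 in MK2-/- and 5.88 in MK2/3-/-, and that of Enpp2 6.47, 4.71 and 4.58. The medium means of Entpd4, Entpd6 and Entpd7 in the knockout genotypes lay closer to wt.

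Among 21 further genes of adenosine and related nucleotide handling, 20 were tested. After LPS 7 were higher and 7 lower in wt, 8 and 7 in MK2-/-, and 6 and 8 in MK2/3-/-, with medians of -0.01, -0.20 and -0.10. Of all genes, 18.6 and 23.5%, 17.5 and 27.1%, and 20.2 and 27.9% were higher and lower. Slc28a2, a concentrative nucleoside transporter gene, rose by 6.11, 5.92 and 5.71 in wt, MK2-/- and MK2/3-/-, and Nt5c3, a cytosolic nucleotidase gene, by 3.83, 3.89 and 4.03. Slc29a2, an equilibrative transporter gene, changed by -2.06, -1.80 and -2.09, and Ampd2, an AMP deaminase gene, by -1.28, -1.76 and -1.81. These 4 genes moved the same way in every genotype. Ampd3, a second AMP deaminase gene, did not: its change was 0.53 for wt (adjusted p = 0.126), 1.45 for MK2-/- (adjusted p = 8.64e-05) and -0.67 for MK2/3-/- (adjusted p = 0.0481). Under LPS Ampd3 was lower in MK2/3-/- than in wt by -1.35 (adjusted p = 0.0019) and than in MK2-/- by -2.08 (adjusted p = 3.19e-05), and its LPS response differed between the 2 knockout genotypes by -2.12 (adjusted p = 0.036, interaction). In all, 2 of the 20 genes were lower in MK2/3-/- than in wt with LPS, Ampd3 and Ampd2 (-0.68, adjusted p = 0.0431), beside 14% of all genes. For MK2-/- against wt none differed, beside 11.6% of all genes. Nt5c1a, whose product makes adenosine from AMP, rose by 1.73, 0.95 and 0.76 and was lower in MK2/3-/- than in MK2-/- under LPS by -1.07 (adjusted p = 0.00715).

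Adora2a, encoding the high-affinity Gs-coupled receptor, rose with LPS in all genotypes. It read 11.48, 13.40 and 12.41 in wt with LPS and 6.43, 6.88, 7.03 and 8.52 in medium. In MK2-/- it read 13.00, 13.02, 12.28 and 13.38 with LPS and 6.31, 6.38, 6.61 and 6.63 in medium, and in MK2/3-/- 12.71, 13.04, 12.43 and 12.81 with LPS and 6.93, 6.72 and 7.36 in medium. The LPS arrays stood well apart from the medium arrays in each genotype, and the highest medium value again came from wt replicate 4. The rise was 5.22 (37.2-fold, adjusted p = 1.64e-08) in wt, 6.44 (86.8-fold, adjusted p = 2.0e-10) in MK2-/- and 5.75 (53.6-fold, adjusted p = 2.69e-09) in MK2/3-/-. No genotype comparison called Adora2a.

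Adora2b, encoding the lower-affinity A2B receptor, rose by similar amounts. It read 14.67, 14.34 and 13.59 in wt with LPS and 9.40, 8.73, 8.54 and 9.93 in medium. In MK2-/- it read 13.82, 14.21, 13.77 and 13.39 with LPS and 8.19, 8.01, 8.03 and 8.18 in medium, and in MK2/3-/- 13.11, 13.33, 13.29 and 13.03 with LPS and 8.74, 8.41 and 7.92 in medium. All 4 MK2/3-/- LPS arrays lay below all arrays of the other genotypes with LPS. The rise was 5.05 (33.2-fold, adjusted p = 6.25e-10) in wt, 5.70 (51.9-fold, adjusted p = 3.23e-11) in MK2-/- and 4.84 (28.6-fold, adjusted p = 3.90e-10) in MK2/3-/-. A second probe rose by 5.06, 5.58 and 4.59.

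Between LPS-treated genotypes, 1 of the 8 genes was called in MK2-/- against wt (11.6% of all genes), 2 in MK2/3-/- against wt (23.6%) and none in MK2/3-/- against MK2-/- (13.5%), and all calls were lower. Adora3 was called in both comparisons with wt and Adora2b in the second. The median difference of the 8 genes was -0.20, -0.52 and -0.27, beside -0.03, -0.02 and -0.06 over all genes.

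Adora2b was lower in MK2/3-/- than in wt by -1.01 (SE 0.30, 2.02-fold, adjusted p = 0.0224, limma). This call was lost without wt LPS replicate 1 (-0.78, adjusted p = 0.124) or replicate 2 (-0.94, adjusted p = 0.0699). The second probe was lower by -0.83 with no overlap (wt 13.30, 13.10 and 12.52 against 11.92, 12.16, 12.45 and 12.04), which did not pass (adjusted p = 0.108). Against MK2-/- the difference was -0.61 (adjusted p = 0.163), and MK2-/- differed from wt by -0.40 (adjusted p = 0.394).

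Adora3, encoding the A3 receptor, was the member whose LPS-treated levels were farthest apart between genotypes. With LPS it read 12.53, 11.58 and 10.26 in wt, 7.43, 9.24, 9.84 and 9.39 in MK2-/- and 6.51, 7.54, 8.80 and 9.10 in MK2/3-/-. Every wt array was above every array of the other genotypes. In medium it read 9.01, 8.05, 8.74 and 8.75 in wt, 7.73, 7.12, 8.14 and 7.51 in MK2-/- and 7.22, 7.05 and 7.62 in MK2/3-/-. Adora3 rose with LPS in wt by 2.82 (SE 0.61, 7.05-fold, adjusted p = 0.000999), and its changes of 1.35 for MK2-/- (adjusted p = 0.0595) and 0.69 for MK2/3-/- (adjusted p = 0.38) did not pass, with overlapping ranges. The change in MK2-/- passed without its LPS replicate 1, the lowest array (1.87, adjusted p = 0.00866), and without wt LPS replicate 1 or 3 or MK2/3-/- LPS replicate 1 or 4, where the difference stayed at 1.35 (adjusted p of 0.036 to 0.049).

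Under LPS the Adora3 signal was lower than in wt by -2.48 (SE 0.61, 5.58-fold) in MK2-/- (adjusted p = 0.0167, limma) and by -3.46 (11.0-fold) in MK2/3-/- (adjusted p = 0.000733). The second call held whichever single array of the 22 was left out, and the first was lost without wt LPS replicate 1 (-1.94, adjusted p = 0.084). Of 15 alternatives other than leaving out 1 array, the second call held in 14 and the first in 13. MK2/3-/- and MK2-/- differed by -0.99 (adjusted p = 0.27), with overlap. In medium Adora3 was lower than in wt by -1.01 in MK2-/- (adjusted p = 0.265) and by -1.34 in MK2/3-/- (adjusted p = 0.269). The interaction tests, which ask whether the LPS response itself differed, gave -1.47 (adjusted p = 0.719) and -2.12 (adjusted p = 0.311). A rise that passed in wt and not in the knockout genotypes was therefore not shown to differ between them.

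Adora3 lies within the span of Tmigd3 in RefSeq. The Tmigd3 probe, at 4.28 to 6.14, differed under LPS from wt by -0.79 in MK2-/- (adjusted p = 0.0335) and by 0.25 in MK2/3-/- (adjusted p = 0.459). It did not follow the Adora3 probe in MK2/3-/-.

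**Figure D5:**
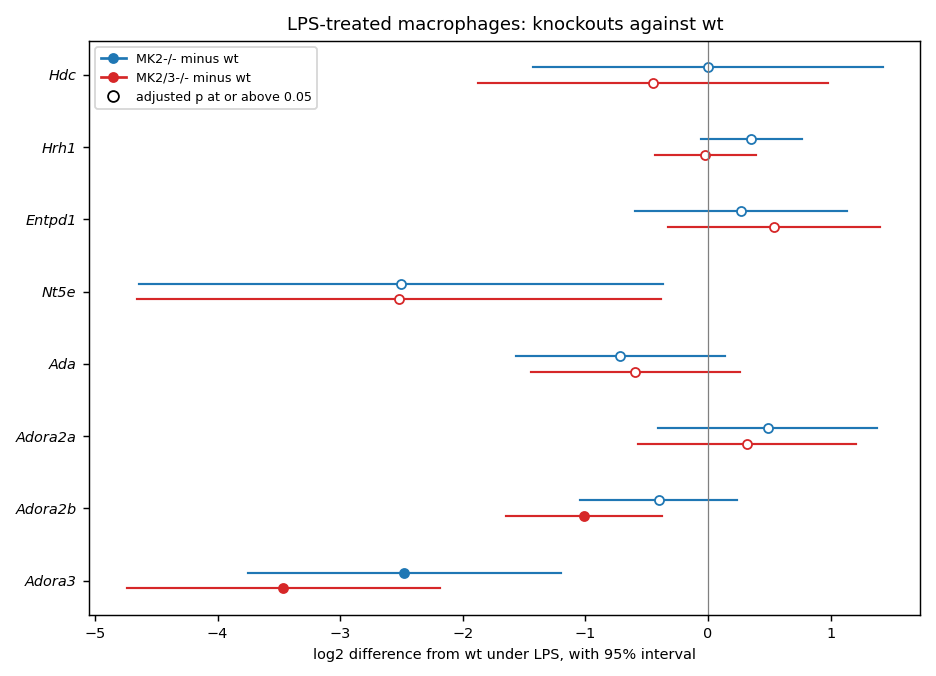
The plot gives the log2 difference between LPS-treated genotypes (x axis, log2 units) for the 8 genes, with bars for 95% intervals and open markers for an adjusted p of 0.05 or more. Adora3 lies at -2.48 for MK2-/- and -3.46 for MK2/3-/- against wt, Adora2b at -1.01 for MK2/3-/-, and the Hdc intervals include 0.

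In medium, 3 of the 8 genes were called in MK2-/- against wt, 1 higher (Hrh1) and 2 lower (Hdc and Adora2b), beside 8.82% of all genes. None was called in MK2/3-/- against wt (2.02%) or in MK2/3-/- against MK2-/- (2.82%). Adora2b was lower in MK2-/- by -1.05 with no overlap (adjusted p = 0.0288), while its second probe gave -0.80 (adjusted p = 0.151). In MK2/3-/- the Adora2b difference was -0.79 (adjusted p = 0.181). The Adora2b call was lost without wt medium replicate 1 or 4 or MK2-/- medium replicate 1, 2 or 3 (-1.08 to -0.79, adjusted p of 0.052 to 0.0879). Without wt medium replicate 4 and both MK2-/- replicate 3 arrays the Adora2b difference was -0.76 (adjusted p = 0.156) and that of Hrh1 0.54 (adjusted p = 0.09). The Hrh1 call was lost without any single wt medium array, without MK2-/- medium replicate 1, 2 or 3, and without MK2-/- LPS replicate 2 or MK2/3-/- medium replicate 2 (0.55 to 0.67, adjusted p of 0.0506 to 0.123).

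No gene of the 8 was called in a difference of LPS responses between genotypes. Of all genes, 0% were called for MK2-/- against wt, 0.678% for MK2/3-/- against wt and 0.0669% for MK2/3-/- against MK2-/-. At an unadjusted p under 0.05 the limma counts of members were 2, 1 and 0, beside 1686, 2547 and 1926 of all 22413 genes.

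Downstream of the Gs- and Gi-coupled receptors, 27 of 28 listed cAMP signalling genes were tested. After LPS 4 were higher and 11 lower in wt, 5 and 13 in MK2-/-, and 6 and 13 in MK2/3-/-, with medians of -0.66, -0.62 and -0.68. The medians of all genes were -0.04, -0.01 and 0.02, and the shares of all genes called in each direction are those given with the histamine genes. Pde4b, a cAMP phosphodiesterase gene, rose by 4.34, 4.73 and 4.71 in wt, MK2-/- and MK2/3-/-, and Creb1, a cAMP-responsive transcription factor gene, by 1.23, 2.10 and 1.87. Pde3b, another phosphodiesterase gene, changed by -3.85, -3.50 and -3.18, and Adcy9, an adenylyl cyclase gene, by -3.08, -4.17 and -4.25. Members of the phosphodiesterase family thus moved in opposite directions.

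Between LPS-treated genotypes the cAMP genes were split. In MK2-/- against wt none was higher and 4 were lower, in MK2/3-/- against wt 2 were higher and 5 lower, and in MK2/3-/- against MK2-/- 5 were higher and 2 lower. Over all genes 4.52% were higher and 7.05% lower in the first, 9.59 and 14% in the second, and 7.73 and 5.79% in the last of these comparisons. Crem, a cAMP-inducible transcription factor gene, was higher in MK2/3-/- than in wt by 1.29 (adjusted p = 0.000861) and than in MK2-/- by 1.32 (adjusted p = 0.000506). Pde7a, a phosphodiesterase gene, was higher by 1.53 (adjusted p = 0.00378) and 1.70 (adjusted p = 0.00143). Crtc3, a CREB coactivator gene, was lower by -1.32 (adjusted p = 0.00352) and -1.05 (adjusted p = 0.0148). These 3 genes set MK2/3-/- apart from both other genotypes with LPS. Both knockout genotypes had less Adcy9 signal than wt, at -0.88 for MK2-/- (adjusted p = 0.0179) and -1.10 for MK2/3-/- (adjusted p = 0.0019). Adcy3 (-1.85, adjusted p = 0.0154, limma) and Adcy4 (-2.12, adjusted p = 0.0313), further cyclase genes, were lower in MK2-/- than in wt. Of the MK2-/- LPS arrays, 1 of 4 was well above background for each. In medium the MK2-/- means were also below wt for Adcy3 (5.14 against 6.64) and Adcy4 (4.34 against 5.47), but not for Adcy9 (11.5 against 11.3). Under LPS the Adcy4 signal of MK2/3-/- exceeded that of MK2-/- by 2.09 (adjusted p = 0.0195). Rapgef3, the gene of the cAMP sensor EPAC1, was well above background on 3 of 4 MK2/3-/- and 0 of 4 MK2-/- LPS arrays. Its mean was 4.93 in MK2/3-/- against 3.63 in MK2-/- (adjusted p = 0.0246, limma). The size of that difference is uncertain, since the MK2-/- values are at background. Gna11, a Gq-family gene, was lower in MK2/3-/- than in wt by -1.49 (adjusted p = 0.00523).

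The genes whose log2 signal followed each member most closely over the 22 arrays are given as a description, since all arrays share the LPS contrast and the slides. For Hdc these were Il1a (r = 0.993), Il6 (0.993) and Socs3 (0.993), for Adora2a Tnfaip3 (0.993), Cflar (0.991) and Cd40 (0.991), and for Adora2b Tma16 (0.994), Rcl1 (0.992) and Igtp (0.989). Entpd1 was followed by Cox7a2l (0.951), Exoc3 (0.951) and Slc15a4 (0.95), and Nt5e by Amot (0.958), Rab34 (0.947) and Eogt (0.941). Adora3 was followed by Acat3 (0.917), Nfix (0.882) and Gcnt2 (0.869), Ada by Chchd6 (0.91), Mnd1 (0.9) and Nme4 (0.883), and Hrh1 by Sp1 (0.804), Bbc3 (0.797) and 3110009E18Rik (0.793).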

How the data were processed

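Total RNA was turned into Cy3-labelled cRNA, which was hybridised in 1 colour to Agilent whole-genome mouse arrays. The 22 deposited scanner files hold spot intensity values that the authors extracted with Agilent Feature Extraction 11.0.1.1 (background-subtracted processed signal). A deposited value table holds log2 values of the same arrays, quantile normalised and set against the median of all samples by the authors, and it was used as an alternative only. Its column medians lie between -0.07 and 0.08 and it correlates with the values used here at r = 0.993 to 0.999, and differences between arrays have the same direction and near the same size as log2 differences here, while its exact centring was not tested.

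Control spots (3671 of 62976 per array) and flagged outlier spots were left out, log2 processed signals were quantile normalised over the 22 arrays, and spots of a probe were averaged. A probe was kept when well above background on at least 3 arrays, and the brightest kept probe stood for its gene. Of 29150 RefSeq probes, 27509 were named through a RefSeq gene table. limma 3.58.1 (R 4.3.3) fitted 6 group means, with Benjamini-Hochberg adjustment over 22413 genes and a threshold of 0.05. 12 comparisons were made. Second probes were adjusted over 28136 kept probes. Groups follow the sample labels. The number of arrays limits the precision.

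The 9 genes, the gene and marker lists, and the tests were chosen with earlier results of these data known. Named from each list are the 2 called genes with the largest rise and fall after LPS in wt, genes called in an interaction, and genes called between LPS-treated genotypes with an absolute log2 difference of at least 1. No probe was paired with Hrh2. Statistics were tested on simulated data. Alternatives were the authors' table, 75th-percentile scaling, normexp background correction, other probe filters and probe choices, fits on the compared groups, array weights, replicate blocks, the methods' t-test and leaving out arrays.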

Additional observations from a re-analysis of the deposited data

Results flagged for a closer look

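A pair of single-array values stood far from the rest of their group. Nt5e in MK2-/- with LPS was 5.48 in replicate 4 against a next value of 3.16, a gap of 0.889 of the group's range. Entpd1 in MK2-/- with LPS was 5.68 in replicate 3 against a next value of 6.84, a gap of 0.922 of the range, and this is the array without Y-linked signal and with 3310 flagged spots. Both gaps exceed Dixon's 95% critical value for 4 samples, 44 groups were checked, and chance alone gives about 1 such gap in 20 groups. No difference of LPS responses between genotypes was called at the 8 genes.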

How the results depend on the processing

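The rises of Hdc, Adora2a and Adora2b and the fall of Entpd1 after LPS kept their call in every genotype under each alternative run, leaving out each array included, except that Hdc has no value with probes above background on all 22 arrays (it reached 21, and Nt5e 17). Over the reported values, 709 of 765 comparisons with an alternative kept direction and call, 32 lost the call, 23 gained it and 1 turned round, and with 1 array left out 1208 of 1254 kept both, 30 lost it, 13 gained it and 3 turned round. The value that turned round was Hrh1 after LPS in wt, 0.11 with scaling to the 75th percentile (adjusted p = 0.661), and Ada after LPS in MK2/3-/- ran from -0.36 to 0.16 with 1 array left out. That scaling also moved the median LPS difference of all genes to 0.30, 0.28 and 0.29 and the share of calls that were higher from 44.2, 39.3 and 42.0% to 60.5, 53.6 and 54.1%, and between LPS-treated genotypes from 39.1, 40.7 and 57.2% to 63.8, 57.4 and 68.6%. In medium that share went from 64.7, 74.1 and 70.7% to 84.1, 90.2 and 89.5%.

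Counts of called members moved by over 1.5 times in genotype comparisons only. In MK2-/- against wt under LPS 1 became 2 with 75th-percentile scaling, array weights, the methods' t-test unadjusted and without the arrays lacking Y-linked signal, and 0 with only the groups compared or the methods' t-test once Benjamini-Hochberg adjusted (0 to 2 with 1 array left out). In MK2/3-/- against wt under LPS 2 became 4 with 75th-percentile scaling, 1 with the probe of largest LPS rise or only the groups compared, and 0 with the adjusted t-test (1 to 2 with 1 array left out). In MK2/3-/- against MK2-/- under LPS 0 became 1 with array weights, without the arrays lacking Y-linked signal and without these and wt medium replicate 4 (chosen after seeing the data), and 2 with the unadjusted t-test (0 to 1 with 1 array left out). In medium, MK2-/- against wt went from 3 to 0 with only the groups compared or without those 3 arrays and to 1 with the adjusted t-test or without the arrays lacking Y-linked signal (0 to 3 with 1 array left out). MK2/3-/- against wt in medium went from 0 to 1 with 75th-percentile scaling, only the groups compared or array weights and to 3 with the unadjusted t-test, which also gave 1 for MK2/3-/- against MK2-/-. The number of all genes called under each setting is not given here, so these counts are not results about the members. The causes were not tested.

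Deviations of LPS and medium arrays with the same replicate number correlated at over 0.1 in 7 of 10 pairs (-0.09 to 0.36), those with the same letter in 7 of 10 (-0.09 to 0.42) and those with unlike letters in 5 of 30. Pairing by number joins unlike labelled ages in wt replicate 3 (LPS 12, medium 13 weeks) and in MK2/3-/- replicate 3 (LPS 14, medium 12 weeks). Arrays of the same letter carry the same age, but whether a letter marks a shared animal is not stated. The main test therefore has no block, and its p-values leave out any pairing by letter. A replicate block by number or by letter gave 7 called members in MK2-/- after LPS in place of 5. It added Hrh1 (adjusted p = 0.0382 by number, limma) and Adora3 (adjusted p = 0.0426) and changed no other count. The other counts were 5, 6, 1, 2, 0, 3, 0 and 0, and 0 for the interactions. The number of all genes called with a block is not given here, so these counts are not results about the members.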
